A study of Mus musculus with 14 samples.

Results

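The suppressors of cytokine signalling (SOCS) are a family of 8 genes in the mouse, Cish and Socs1 to Socs7. They were followed here in bone marrow erythroid progenitors with and without erythropoietin (EPO). They are 8 of the 18193 genes that probe sets of the array name alone. All probe sets that the annotation gives to 1 of the 8 alone were taken, which gave 24 of the 45037 probe sets tested. Socs2 has 6 probe sets, Socs4 and Socs7 have 4 each, Socs3 and Socs6 have 3 each, Socs5 has 2, and Cish and Socs1 have 1 each. No filter on low values was applied, so all 24 were tested. The cells came from the marrow of wild-type C57Bl/6 female mice aged 8 to 12 weeks and were expanded in SP34ex medium. In the paper this medium held EPO, stem cell factor, dexamethasone and beta-estradiol, so cells of every group had met EPO before the 5.5 h without cytokines. Stage E1 CFUe-like progenitors were taken by depleting Lin+ cells and selecting Kit+ CD71+ cells, at day 3 in the deposited record and at day 3.5 in the paper. Stage E2 proerythroblasts were taken at day 3.5, from parallel cultures, by depleting Lin+ and then Kit+ cells and selecting CD71+ cells. Cells of both stages spent 5.5 h without hematopoietic cytokines and then 90 min with EPO at 4 U/mL (EPO-challenged) or with none (unchallenged). There were 4 EPO-challenged and 4 unchallenged arrays of stage E1, and 3 of each of stage E2. The replicates carry the title of biological replicates. The sources used here do not say how many mice went into each.

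EPO acts on erythroid progenitors through its receptor EPOR and the bound kinase JAK2, which phosphorylates tyrosines of the receptor tail. STAT5 docks there, is phosphorylated, enters the nucleus and binds paired TTC and GAA motifs near its target genes. Cish and several SOCS genes are among those targets, and their proteins act back on the same receptors, which makes them classic negative feedback factors. Each SOCS protein has an SH2 domain, which binds phosphotyrosine, and a SOCS box, which recruits elongins and a cullin to form a ubiquitin ligase. SOCS1 and SOCS3 also inhibit JAK kinases directly, whereas CIS (the product of Cish) and SOCS2 compete for receptor phosphotyrosines. SOCS4 to SOCS7 are known mostly from growth factor and insulin receptor signalling.

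Promoters are shown for 3 members because the members differ in the STAT5 motif TTCNNNGAA near their starts. The sequences run from 250 bases before the start of transcription to 50 bases after it, on the gene's strand, in RefSeq's GRCm38.p6 mouse build. Capitals mark each match to TTCNNNGAA, which is its own reverse complement and so covers both strands. RefSeq's table gave such a stretch for 4 of the 8 members, Cish, Socs1, Socs3 and Socs4. Cish lies on chr9:107296409-107296708 (plus strand), Socs3 on chr11:117969317-117969616 (minus strand) and Socs4 on chr14:47276670-47276969 (plus strand).

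Cish: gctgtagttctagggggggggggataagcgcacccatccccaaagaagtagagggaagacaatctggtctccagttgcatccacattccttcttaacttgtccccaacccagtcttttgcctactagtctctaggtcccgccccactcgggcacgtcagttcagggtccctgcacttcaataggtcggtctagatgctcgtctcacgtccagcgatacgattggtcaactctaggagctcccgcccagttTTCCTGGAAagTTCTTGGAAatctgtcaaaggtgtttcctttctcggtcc

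Socs3: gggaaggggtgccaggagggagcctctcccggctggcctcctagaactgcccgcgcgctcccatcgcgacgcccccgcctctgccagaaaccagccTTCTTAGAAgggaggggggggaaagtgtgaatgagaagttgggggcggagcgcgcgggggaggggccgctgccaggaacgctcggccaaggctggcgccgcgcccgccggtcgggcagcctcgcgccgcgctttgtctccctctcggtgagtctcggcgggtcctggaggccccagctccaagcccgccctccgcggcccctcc

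Socs4: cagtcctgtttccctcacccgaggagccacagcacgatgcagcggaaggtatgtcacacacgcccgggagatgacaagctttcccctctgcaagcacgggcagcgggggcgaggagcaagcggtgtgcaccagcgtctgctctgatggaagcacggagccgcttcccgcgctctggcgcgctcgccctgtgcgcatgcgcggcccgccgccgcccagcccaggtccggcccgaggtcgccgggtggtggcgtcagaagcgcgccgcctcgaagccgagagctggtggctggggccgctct

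The Cish stretch holds the motif at 2 places, TTCCTGGAA starting at base 1 and TTCTTGGAA starting at base 12, counted from the start of transcription as 1, and these do not overlap. The Socs3 stretch holds 1 match, TTCTTAGAA, starting at base -154. The stretches of Socs1 and Socs4 hold no match to these letters. Among 32851 mouse promoters of the same length, 2726 (8.30%) hold the motif at least once and 150 (0.457%) hold it at 2 or more places. A match is a description of these letters and not evidence of a bound site.

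The authors' log2 values have had a constant taken off for each probe set. They show how a probe set differs between arrays but not its level, so whether a marker or a member is expressed at all cannot be read. Stage E1 arrays had a wider overall spread than stage E2 arrays, with an SD over all probe sets of 0.633 to 0.736 against 0.259 to 0.295. Replicates of a group differed with a median SD of 0.0729 to 0.0934 in stage E1 and of 0.0317 to 0.0343 in stage E2. Since stage E1 arrays of equal replicate number moved together, limma was also run with the number blocked, and that adjusted p stands beside each stage E1 or interaction call that it ends. No marker of erythroid, B lymphoid, T lymphoid, myeloid, megakaryocyte or mast cell and basophil identity passed the test for EPO in either stage (0 of 45 probe sets).

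Cish, Socs2 and Socs3 each had at least 1 probe set that was higher with EPO in both stages. In stage E1 these were the 1 of Cish, 2 of 6 of Socs2 and 1 of 3 of Socs3, and in stage E2 the 1 of Cish, 3 of 6 of Socs2, all 3 of Socs3 and 1 of 4 of Socs4, a call that was lost without any of 5 of the 6 arrays. In stage E1, 4 of the 24 family probe sets were higher with EPO at an adjusted p under 0.05 and 0 were lower (limma, two-sided, Benjamini-Hochberg over all probe sets), against 0.804% and 0.36% of all probe sets. At an unadjusted p under 0.05 in either direction there were 7, against 8.84% of all probe sets. With the block, 1 of the 4 calls, that of Cish, was kept, and 0.0977% of all probe sets passed as higher. In stage E2, 8 were higher and 0 were lower, against 2.54% and 2.08% of all probe sets. At an unadjusted p under 0.05 in either direction there were 12, against 16.5% of all probe sets. After quantile normalization of the 14 arrays the 4 rises of stage E1 became 1.90 to 3.93 log2 units and the 8 of stage E2 became 0.72 to 9.60, and the same numbers passed. Arrays with and without EPO did not overlap, with EPO higher, for 4 of the 24 in stage E1 (3.28% of all probe sets) and for 16 of the 24 in stage E2 (9.42%). Some of the 16 gaps are very small. On Socs2 1442586_at the EPO-challenged E2 arrays had -0.0088, -0.0056 and 0.46 and the unchallenged ones -0.0162, -0.0096 and -0.0138. The median log2 change of the 24 was 0.11 in stage E1 and 0.32 in stage E2, and that of all probe sets was -0.0047 and -0.0049.

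**Figure D1:**
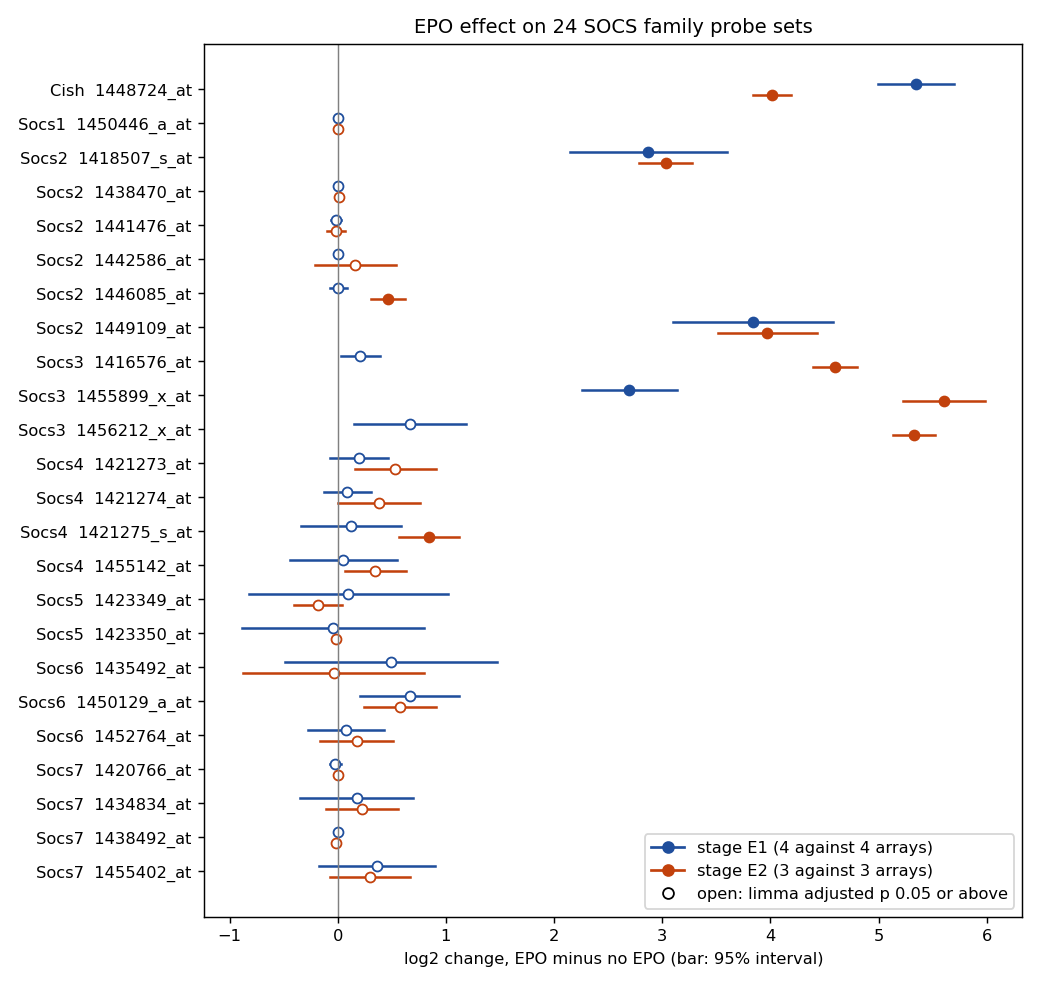
Change with EPO of each of the 24 SOCS family probe sets (log2 units, EPO minus no EPO) in stage E1 (blue, 4 against 4 arrays) and stage E2 (orange, 3 against 3), with 95% intervals. Filled points passed at an adjusted p under 0.05. In both stages Cish and 2 probe sets of Socs2 stand far to the right. So do the Socs3 probe sets in stage E2 and Socs3 1455899_x_at in stage E1, while most of the rest lie near 0.

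Cish encodes CIS, the founding member of the family, which occupies STAT5 docking sites on cytokine receptors. On its probe set, 1448724_at, the 4 unchallenged stage E1 arrays had centred log2 values of -5.44, -5.11, -5.83 and -5.38, and the 4 EPO-challenged arrays had 0.02, -0.02, -0.14 and -0.22. Every EPO-challenged array lay above every unchallenged array, with a wide gap between the groups. The rise was 5.35 log2 units (SE 0.15), or 40.7-fold with a 95% interval of 31.8 to 52.0 (limma adjusted p 7.44e-05, and 0.0206 with the block), and it ranked first of the 45037 probe sets tested. In stage E2 the unchallenged arrays had -1.11, -1.24 and -1.05 and the EPO-challenged arrays had 2.97, 2.81 and 2.88. Again the groups did not overlap. The rise in stage E2 was 4.02 log2 units (SE 0.066), or 16.2-fold with an interval of 14.4 to 18.2 (limma adjusted p 0.000281), and ranked 7th. After quantile normalization the rise of Cish was 3.93 log2 units in stage E1 and 6.98 in stage E2, both outside the 95% intervals given. From low to high the groups ran unchallenged E1, unchallenged E2, EPO-challenged E1 and EPO-challenged E2, and no neighbours in that order overlapped. Of the 4 members with a promoter stretch, Cish alone holds the motif at 2 places, and any part of the motif in the rise was not tested.

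**Figure D2:**
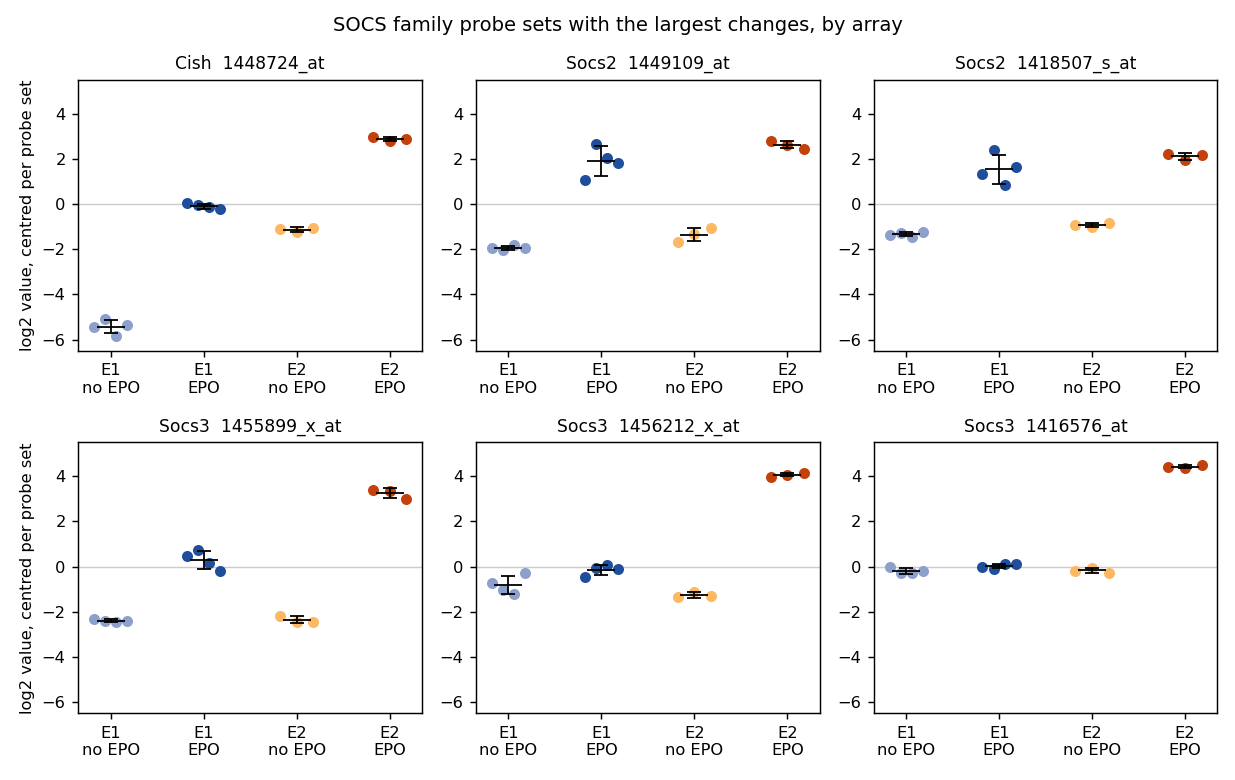
Centred log2 value of each array (points) for the 6 SOCS family probe sets with the largest changes, in the 4 groups, with group mean and SD (n = 4 per group in stage E1, n = 3 in stage E2). Cish and Socs2 are high with EPO in both stages, while the lower row shows the 3 Socs3 probe sets high in EPO-challenged E2 arrays, and in stage E1 a gap between the groups on 1455899_x_at and overlap on the other two.

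Socs2 encodes an inhibitor best known for restraining growth hormone receptor signalling. On probe set 1449109_at the unchallenged stage E1 arrays had -1.95, -2.02, -1.81 and -1.97 and the EPO-challenged arrays had 1.08, 2.67, 2.05 and 1.80. The groups did not overlap, and the EPO-challenged arrays were the more scattered, with an SD of 0.66 against 0.088. The change was 3.84 log2 units (SE 0.31), or 14.3-fold (limma adjusted p 0.00435, and 0.0681 with the block), 12th from the highest. In stage E2 the values were -1.67, -1.31 and -1.08 without EPO and 2.77, 2.63 and 2.45 with it. These groups did not overlap either, with a rise of 3.97 log2 units (SE 0.18), or 15.7-fold (limma adjusted p 0.00244). After quantile normalization the rise was 2.76 in stage E1 and 6.87 in stage E2. The second responsive probe set, 1418507_s_at, changed by 2.87 (SE 0.31) in stage E1 (limma adjusted p 0.0113, and 0.0807 with the block) and by 3.03 (SE 0.094) in stage E2 (adjusted p 0.00124). On both probe sets the EPO-challenged E1 and E2 arrays overlapped. The suffix s_at marks a probe set whose probes can match several transcripts.

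The other 4 Socs2 probe sets, 1438470_at, 1441476_at, 1442586_at and 1446085_at, did not move in this way. Their changes in stage E1 lay between -0.014 and 0.0061. In stage E2, 1446085_at had 0.51, 0.42 and 0.28 with EPO and -0.05, -0.08 and -0.04 without. It rose by 0.46 log2 units (SE 0.061, limma adjusted p 0.0269), but the adjusted p was above 0.05 without any of unchallenged replicates 1, 2 or 3 (0.0878, 0.108 and 0.0891) or EPO-challenged replicates 1 or 2 (0.0504 and 0.0893). Where in the gene these 4 probe sets lie was not examined here.

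Socs3 encodes the member that binds both cytokine receptors and JAK kinases, and its 3 probe sets gave different answers in stage E1 and the same answer in stage E2. On 1455899_x_at the unchallenged stage E1 arrays had -2.30, -2.41, -2.44 and -2.43 and the EPO-challenged arrays had 0.48, 0.71, 0.18 and -0.18. The groups did not overlap and the change was 2.70 log2 units (SE 0.18), or 6.48-fold (limma adjusted p 0.00265, and 0.0538 with the block). On 1456212_x_at the unchallenged arrays had -0.72, -1.03, -1.19 and -0.28 and the EPO-challenged arrays -0.46, -0.05, 0.05 and -0.09. Here the groups overlapped, and the difference was 0.67 (SE 0.22, adjusted p 0.34). On 1416576_at the groups overlapped too, with a difference of 0.21 (SE 0.077, adjusted p 0.434), which passed with array weights (0.30, adjusted p 0.0274). The suffix x_at marks a probe set with probes that can also match other transcripts. Which of the 3 follows Socs3 RNA in stage E1 was not tested here. The paper reports Socs3 as induced by EPO in stage E1 cells and lists it among the genes it assayed by quantitative RT-PCR.

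In stage E2 all 3 Socs3 probe sets rose and were among the 5 largest rises of the 45037. On 1416576_at the unchallenged arrays had -0.19, -0.04 and -0.27 and the EPO-challenged arrays 4.43, 4.34 and 4.52, a rise of 4.60 log2 units (SE 0.077) or 24.2-fold. On 1455899_x_at the arrays went from -2.17, -2.44 and -2.45 to 3.40, 3.36 and 3.00, a rise of 5.61 (SE 0.15) or 48.8-fold. On 1456212_x_at they went from -1.37, -1.13 and -1.28 to 3.99, 4.07 and 4.13, a rise of 5.32 (SE 0.075) or 40.1-fold. No EPO-challenged array overlapped an unchallenged one on any of the 3, and the limma adjusted p was 0.000281, 0.000878 and 0.000281.

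Socs4, a regulator of growth factor receptors, moved by less. On 1421275_s_at the unchallenged stage E2 arrays had 0.25, -0.02 and 0.01 and the EPO-challenged arrays had 1.07, 0.81 and 0.87. The groups did not overlap, and the rise was 0.84 log2 units (SE 0.11), or 1.79-fold (limma adjusted p 0.0242). The adjusted p was above 0.05 without unchallenged replicate 2 or 3 (0.0933 and 0.0858) or EPO-challenged replicate 1, 2 or 3 (0.0647, 0.06 and 0.0794), with changes of 0.77 to 0.89. The other 3 Socs4 probe sets did not pass, with differences of 0.53 (1421273_at), 0.38 (1421274_at) and 0.35 (1455142_at) and adjusted p from 0.149 to 0.299. On all 4, every EPO-challenged E2 array lay above every unchallenged one. The calls of 1421273_at and 1421274_at turn on single arrays, since 1421273_at passed without EPO-challenged replicate 3 (0.69, adjusted p 0.0079) and 1421274_at without EPO-challenged replicate 2 (0.54, adjusted p 0.0246). In stage E1 the 4 differences were 0.053 to 0.19, with adjusted p of 0.845 or more, and the groups overlapped on all 4.

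Socs1, Socs5, Socs6 and Socs7 gave no passed change with EPO in either stage. Socs1, a strong inhibitor of interferon signalling, hardly varied on its probe set, 1450446_a_at, whose 14 values spanned 0.0238 log2 units. It is 1 of 7 family probe sets with a span under 0.5 over the 14 arrays, and on such probe sets a flat value cannot be told apart from a transcript below detection. Socs6, which acts on Kit and insulin receptor signalling, came nearest to passing among these 4 genes. On 1450129_a_at its stage E1 arrays had 0.46, 0.01, -0.07 and 0.53 without EPO and 0.50, 1.01, 1.10 and 0.97 with it. The difference was 0.66 (SE 0.19, limma adjusted p 0.263), and in stage E2 it was 0.58 (SE 0.13, adjusted p 0.0939, and 0.0339 among the probe sets with an SD above the median) with no overlap between the groups. The 2 probe sets of Socs5, known for its action on interleukin 4 and EGF receptors, differed by 0.096 and -0.045 in stage E1 and by -0.18 and -0.013 in stage E2. The -0.18 of 1423349_at became -0.27 with an adjusted p of 0.0326 without unchallenged replicate 1. The 4 probe sets of Socs7, which binds insulin receptor substrates, lay between -0.022 and 0.36 in stage E1 and between -0.017 and 0.30 in stage E2.

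Whether the response to EPO differed between the stages was tested as an interaction in a joint limma model of the 14 arrays. Socs3 rose more in stage E2, by 4.66 (1456212_x_at, SE 0.27), 4.39 (1416576_at, SE 0.11) and 2.91 (1455899_x_at, SE 0.26) log2 units. These ranked first, second and 4th among the interactions of all probe sets, with an adjusted p of 3.6e-05, 2.83e-08 and 0.000675. With the block they were 0.0199, 0.0041 and 0.0292. Of the 24 family probe sets, 4 were higher and 1 lower in this test, against 0.18% and 0.235% of all probe sets. After quantile normalization 8 were higher and 0 lower, against 2.11% and 1.71% of all probe sets.

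The lower one was Cish, whose rise was smaller in stage E2 by 1.33 log2 units (interaction -1.33, SE 0.19, limma adjusted p 0.0152, and 0.0762 with the block), and it turned to 3.05 (adjusted p 0.000339) after quantile normalization. Quantile normalization gives every array the same distribution, and so stretches the stage E2 values and compresses those of stage E1, whose spreads differ as given above. The values have had a constant taken off for each probe set, so this step rescales differences between arrays and not levels. Quantile normalization therefore cannot decide the order of the Cish rise between the stages. The smaller rise in stage E2 kept its sign and call with median centring (-1.33), array weights (-1.27) and each single array left out. Its call was lost with the block, as given above. Median centring, array weights and leaving out arrays keep the difference in spread between the stages, so they cannot decide that order either. The 2 responsive Socs2 probe sets showed no passed interaction, at 0.16 (95% interval -0.67 to 0.999) for 1418507_s_at and 0.13 (-0.77 to 1.03) for 1449109_at, while after quantile normalization they were 3.43 and 4.11 (adjusted p 0.000119 and 0.000132). The minor Socs2 probe set 1446085_at had an interaction of 0.46 (SE 0.067, adjusted p 0.0178), with an adjusted p of 0.133 with the block, 0.168 among the probe sets with an SD above the median, 0.0544 with limma's trend and robust options and 0.0536 without unchallenged E2 replicate 2. After quantile normalization the Socs3 interactions were 7.37 to 8.59. Since that step stretches stage E2 and compresses stage E1, a larger value there is not a separate check.

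**Figure D3:**
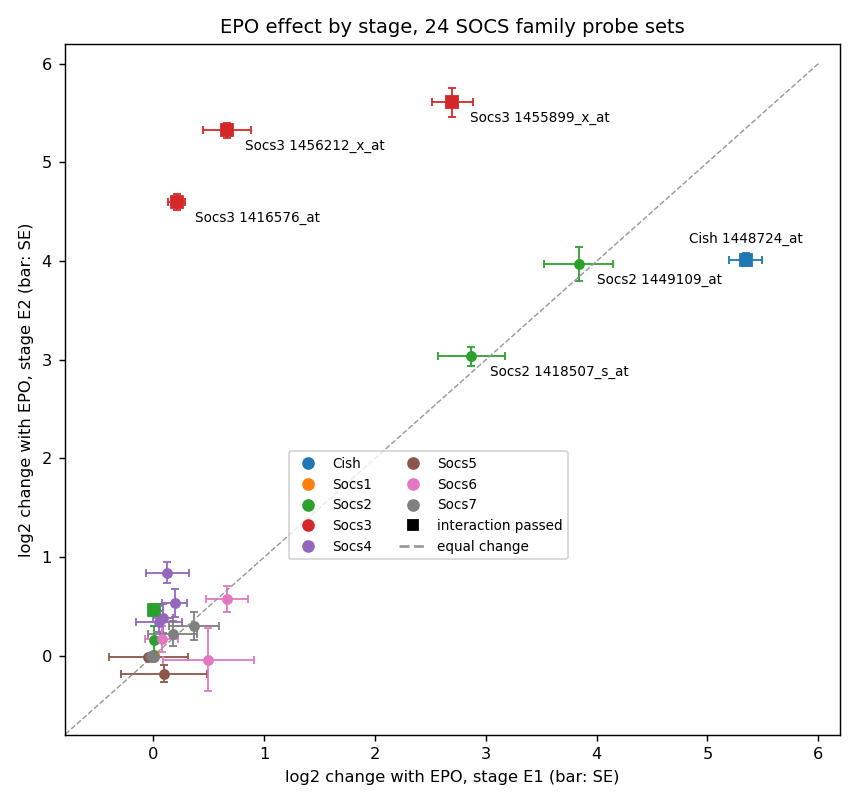
Change with EPO in stage E1 (x axis, log2 units) against that in stage E2 (y axis, log2 units) for the 24 SOCS family probe sets, with SE bars, and squares where the interaction passed. The 3 Socs3 squares lie far above the dashed line of equal change, the responsive Socs2 points lie near it, and Cish lies below it, a side that turns after quantile normalization.

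The stages were also compared at the same treatment, again in the joint model. Stage, culture day and isolation differ together and cannot be told apart here, and fewer cells of a type and less RNA per cell cannot be told apart in bulk RNA. Without EPO, 2 of the 24 family probe sets were higher and 1 was lower in stage E2, against 10.1% and 10.8% of all probe sets, a share near the background. After quantile normalization 2 were higher and 5 lower, against 12.9% and 12.8%. Cish was higher in unchallenged E2 than in unchallenged E1 arrays by 4.31 log2 units (SE 0.13), or 19.8-fold (limma adjusted p 6.8e-09), and by 1.44 after quantile normalization. Socs4 (1421275_s_at) was higher by 0.59 (adjusted p 0.0378), a call lost without unchallenged E1 replicate 1, 3 or 4, unchallenged E2 replicate 1, 2 or 3, or EPO-challenged E2 replicate 2 or 3 (adjusted p of 0.051 to 0.146). It was also lost with the block (0.0958), which here joins arrays of equal number across the stages that are not known to be paired. Socs7 (1434834_at) differed by -0.82, lower in stage E2 (SE 0.20, adjusted p 0.0145), with an adjusted p of 0.0629 without unchallenged E2 replicate 1. The 3 Socs3 probe sets differed by 0.01, 0.04 and -0.45 without passing, and the responsive Socs2 probe sets by 0.41 and 0.58, signs that turn after quantile normalization for Socs2 (-1.25 and -1.58) and for Socs3 1455899_x_at (-2.92). Single arrays decide a further pair of calls, since Socs3 1456212_x_at passed without unchallenged E1 replicate 3 (-0.58, adjusted p 0.0438), as it did after quantile normalization (-2.26) and with array weights (-0.54), and Socs2 1441476_at without unchallenged E2 replicate 1 (-0.09, adjusted p 0.0316).

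Under EPO, 7 of the 24 were higher and 1 was lower in stage E2, against 10.3% and 12% of all probe sets, and 12 were higher and 0 lower after quantile normalization, against 12.7% and 12.3%. Socs3 was higher by 4.40, 4.20 and 2.95 log2 units (limma adjusted p 9.27e-11 to 6.72e-07) and Cish by 2.97 (SE 0.13), or 7.86-fold (adjusted p 8.6e-08). After quantile normalization these became 7.15, 6.32 and 4.78 for Socs3 and 4.48 for Cish. Socs4 was higher by 1.30 (1421275_s_at, adjusted p 0.000249) and 0.56 (1421273_at, adjusted p 0.00939), the latter with an adjusted p of 0.0503 without EPO-challenged E2 replicate 1. Socs4 1421274_at, at 0.28, passed without EPO-challenged E1 replicate 2 (0.37, adjusted p 0.039) or E2 replicate 2 (0.44, adjusted p 0.00972). Socs2 was higher on 1446085_at, by 0.41 (adjusted p 7.62e-05). The responsive 1418507_s_at and 1449109_at, at 0.57 and 0.72, did not pass (adjusted p 0.155 and 0.104), but did so after quantile normalization (2.18 and 2.52, adjusted p 1.83e-05 and 2.88e-05), with array weights (adjusted p 0.00776 and 0.0174) and without EPO-challenged E1 replicate 2 (0.85 and 0.97, adjusted p 0.0043 and 0.0108). On 1449109_at the adjusted p was also 0.045 among the probe sets with an SD above the median. Socs7 (1434834_at) differed by -0.76, lower in stage E2 (adjusted p 0.0194), with an adjusted p of 0.0529, 0.078 and 0.0739 without EPO-challenged E1 replicate 3, E2 replicate 1 and E2 replicate 2, and of 0.166 after quantile normalization (-0.42).

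Markers of other cells moved with the stage. For comparison, 10.1% of all probe sets were higher and 10.8% lower in stage E2 without EPO, and 10.3% and 12% under EPO. In both stage comparisons 7 of 12 myeloid probe sets (7 of 10 genes) were lower in stage E2, among them Mpo (-9.47 without EPO), S100a8 (-9.49) and Elane (-7.01), which encode neutrophil granule and calcium-binding proteins. The mean over the myeloid list was 3.25 to 3.80 in stage E1 arrays and -0.10 to -0.04 in stage E2 arrays. Of the mast cell and basophil probe sets, 2 of 3 were lower, and 3 of 3 megakaryocyte probe sets were higher in stage E2. Of 10 erythroid probe sets, 7 were higher and 2 lower in stage E2 without EPO, and 6 and 2 under EPO. Alas2, which encodes the erythroid enzyme of heme synthesis, was higher by 4.22 without EPO, and the lower ones were both of Kit (-2.69 and -3.98), whose protein was used to separate the stages. The part of these shifts in the stage and interaction values of the SOCS family was not tested.

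**Figure D4:**
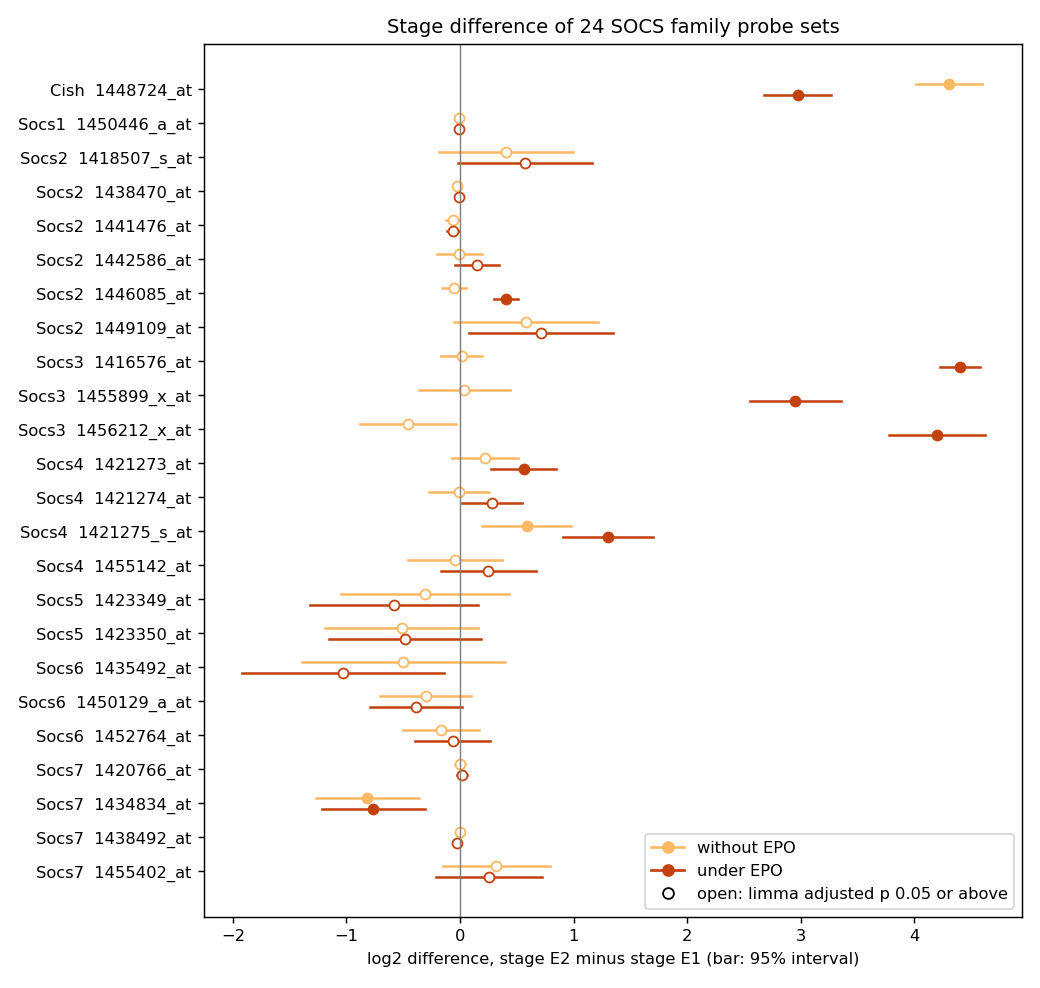
Difference between stage E2 and stage E1 of the 24 SOCS family probe sets (log2 units, E2 minus E1) without EPO (light orange) and under EPO (dark orange), with 95% intervals and filled points where the adjusted p was under 0.05. Cish stands apart in both comparisons, and Socs3 stands apart under EPO, while quantile normalization places the Socs3 probe sets 1455899_x_at and 1456212_x_at lower in stage E2 without EPO.

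Genes that SOCS proteins act on, or work with, were counted in the same way. Among the EPO receptor, JAK kinases and STAT factors (22 probe sets), 0 passed in stage E1 and 1 rose in stage E2, Stat3, by 0.84 log2 units (limma adjusted p 0.0463). Of 46 probe sets for other receptors and docking proteins, 1 was higher in stage E1, Irs2, an insulin receptor substrate, at 3.50 (adjusted p 0.00802, and 0.122 with the block). In stage E2, 4 were higher, which were Il4ra at 1.16, 2 probe sets of the shared receptor chain Csf2rb at 1.13 and 0.79, and Irs2 at 0.82. The median of the receptor list was -0.0033 in stage E1 and -0.0043 in stage E2, close to that of all probe sets. Elongins, cullins and the other partners of the SOCS box (33 probe sets) gave 0 passed in stage E1 and 1 in stage E2, Rnf7, a RING subunit, at 0.39.

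Of the 43 probe sets of other proteins with a SOCS box, 0 passed in stage E1, and 4 were higher and 1 lower in stage E2. These were Asb1 (0.48 and 0.64), Wsb2 (0.73 and 1.72) and, in the other direction, Asb6 (-0.64). Of 38 probe sets of other attenuators of JAK-STAT signalling, 0 passed in stage E1. In stage E2 the phosphatase Ptpn1 (0.27) and the ubiquitin ligase Cbl (0.92) were higher and the lipid phosphatase Inpp5d was lower (-0.31). These 2 higher and 1 lower are near the shares of all probe sets. Of 26 probe sets of STAT5 target genes outside the family, 12 were higher and 1 was lower in stage E1 (7 and 0 of these calls were kept with the block), and 14 and 1 in stage E2. The list holds genes that the study named from these samples, so its counts are not independent of it. In stage E1, Osm, a cytokine of the interleukin 6 family, rose by 5.12 and Ccnd2, a cyclin, by up to 3.43, and Podxl, a sialomucin, rose by 4.99. The median of this list was 2.34 in stage E1 and 0.92 in stage E2.

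**Figure D5:**
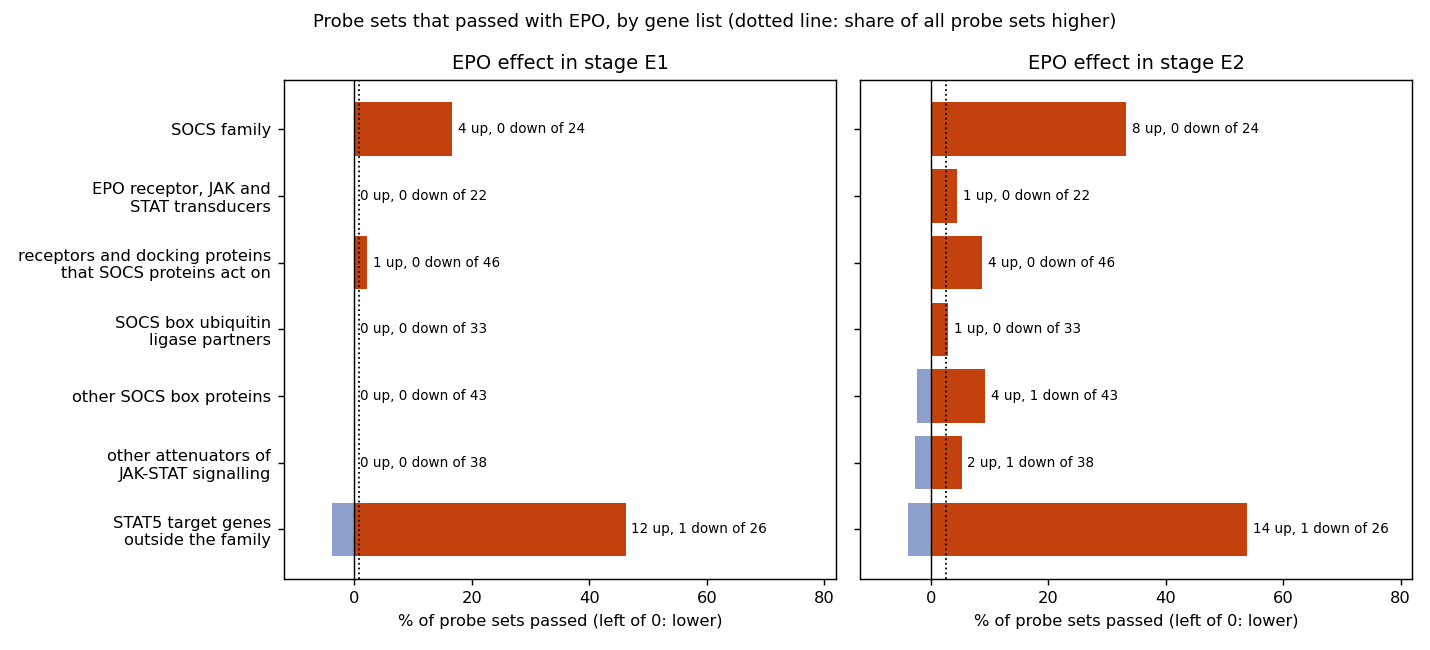
Share of probe sets (percent) that passed with EPO at an adjusted p under 0.05 in the SOCS family and 6 related gene lists, in stage E1 (left) and stage E2 (right), with bars right of 0 for higher and left of 0 for lower, and a dotted line for the share of all probe sets higher. The SOCS family (4 of 24 and 8 of 24 higher) and the STAT5 target genes (12 of 26 and 14 of 26) have the longest bars.

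The genes whose pattern over the 14 arrays came nearest to each responsive member were found by the root mean square difference of values centred on their own means. For Cish (SD over the 14 arrays 3.13) they were Egr1, an immediate early transcription factor, at 0.984, then Nupr1 at 1.26 and Trib3 at 1.28. With EPO, Egr1 rose by 3.06 log2 units in stage E1 and 4.08 in stage E2, and Cish by 5.35 and 4.02. Nupr1 (3.90 and 0.85) and Trib3 (3.69 and 0.87) rose far less than Cish in stage E2. For Socs2 (1449109_at, SD 2.08) the nearest was Tnfrsf13c, the BAFF receptor, at 0.355, followed by Nab2 at 0.6 and Noct at 0.707. For Socs3 (1455899_x_at, SD 2.32) they were Nab2 at 0.822, Socs2 at 0.882 and Noct at 1.02. For Socs4 (1421275_s_at, SD 0.604) they were Kdm7a at 0.184, Tmbim1 at 0.219 and Itgb3 at 0.225. Within the family, the 3 Socs3 probe sets differed from each other by 0.392 to 1.09 and the 2 responsive Socs2 probe sets by 0.581.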

How the data were processed

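RNA of 14 samples was hybridized to Affymetrix mouse expression arrays. The authors scanned and processed the arrays with GCOS and computed GC-RMA values in GeneSpring, and the deposited log2 values have a constant taken off for each probe set. The base of 2 was inferred from the folds in the study. In 33802 of 45037 probe sets (75.1%) a pair of values of equal size lay above and below 0 (tolerance 2e-06), but what the constant is was not settled. The 64 control probe sets were left out.

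Arrays were compared with R 4.3.3 and limma 3.58.1 by its two-sided moderated test, with Benjamini-Hochberg adjustment over all probe sets and an adjusted p under 0.05. Stage E1 was fitted on 8 arrays, stage E2 on 6, and the interaction and the stage comparisons on all 14. The fits on all 14 take a common variance per probe set for both stages, although replicates differed more in stage E1. P-values measure the spread between these samples. The number of arrays limits the precision. Gene names came from the platform annotation, in which 34945 probe sets name 1 gene (18193 genes) and 932 name several. The calculations were tested on simulated data.

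All member probe sets are named. Genes of other lists are named where a probe set passed in stage E1 or E2, at most 6 per list by the smallest p, and likeness takes the 3 nearest genes. Marker genes are named as examples. The members and lists were chosen with earlier results of these data known.

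Same-numbered stage E1 arrays had correlated deviations (0.195, 0.187, 0.173 and 0.152), each above the 0.1 that was taken to show pairing, although unchallenged replicate 4 correlated best with EPO-challenged replicate 3 (0.203). The sources used here name no shared batch. In stage E2 (-0.061, -0.057 and -0.016) and across the stages (-0.126 to 0.059) the numbers were taken as names only. In the stage comparisons the block still joins equal numbers across the stages, so its values there do not rest on a known pairing.

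Alternatives were quantile normalization, centring of arrays on their medians, the replicate number as a block, the probe sets with an SD above the median, limma's trend, robust and array weight options, the methods' one-tailed test with and without adjustment, a joint fit and each array left out in turn. The SD was taken over all 14 arrays, so probe sets were kept in part through the differences tested.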

Additional observations from a re-analysis of the deposited data

Results flagged for a closer look

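The change with EPO differed between the stages for 5 family probe sets by the interaction test of limma. Stage E2 minus stage E1, the differences were 4.66 (Socs3 1456212_x_at), 4.39 (Socs3 1416576_at), 2.91 (Socs3 1455899_x_at), 0.46 (Socs2 1446085_at) and -1.33 (Cish 1448724_at). With the replicate block the calls of Socs2 1446085_at (adjusted p 0.133) and Cish (0.0762) were lost. After quantile normalization that of Cish reversed to 3.05. That step rescales values with a constant taken off, so it cannot decide the order of the Cish rise. Markers of myeloid, mast cell and megakaryocyte identity and the overall spread of values differ between the stages as well, and their part in these differences was not tested.

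On Socs7 1420766_at, EPO-challenged stage E1 replicate 1 lay apart from its group at -0.0856, with a gap of 0.868 of the group's range of 0.0862. It was the 1 such array in 48 groups of 4 examined, and chance gives about 1 in 20.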

How the results depend on the processing

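Of the family's single results, 472 recomputed values of called results kept direction and call, 35 were no longer past the threshold and 1 reversed. Of uncalled results that passed in at least 1 alternative, 399 recomputed values kept direction and call, 36 came past the threshold and 9 reversed. Uncalled results that passed in no alternative were left out of these counts. A filter on low values could not be run, because levels cannot be read. The fit on the probe sets with an SD above the median does not replace it. Its SD takes in the EPO and stage differences under test, so its adjusted p is not independent of them.

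In stage E1, 4 probe sets were higher, against 1 with the replicate block and 7 by the methods' one-tailed test without adjustment, and 4 without each single array. In stage E2, 8 were higher (6 to 8 without single arrays) and 0 lower (0 to 1). With the block, which does not pair the stage E2 arrays, 6 were higher, and Socs2 1449109_at (adjusted p 0.0501) and 1446085_at (0.112) were lost. In the interaction, 4 were higher (8 after quantile normalization, 3 to 4 without single arrays) and 1 lower (0 after quantile normalization and 0 with the block, 1 without each single array). Without EPO, 2 were higher in stage E2 (1 with the block, 1 to 2 without single arrays) and 1 lower (5 after quantile normalization, 2 with array weights, 1 to 2 without single arrays). Under EPO, 7 were higher (12 after quantile normalization, 6 to 10 without single arrays) and 1 lower (0 after quantile normalization, 2 among probe sets with an SD above the median, 4 with array weights, 0 to 1 without single arrays).

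Reversed values were, after quantile normalization, Cish in the interaction (3.05), Socs2 1418507_s_at (-1.25), Socs2 1449109_at (-1.58) and Socs3 1455899_x_at (-2.92) between stages without EPO, and Socs6 1450129_a_at under EPO (0.18). Socs3 1455899_x_at without EPO was also -0.046 with the block and -0.054 without unchallenged E2 replicate 1. Without single arrays that value ran from -0.054 to 0.088. The uncalled Socs2 interactions reversed to -0.073 (1418507_s_at without EPO-challenged E1 replicate 3, range without single arrays -0.073 to 0.44) and to -0.14 and -0.024 (1449109_at without EPO-challenged E1 replicate 1 and without unchallenged E2 replicate 1, range -0.14 to 0.39). Quantile normalization gives all arrays 1 distribution by construction, and the stage E2 rises of the 8 called probe sets became 0.72 to 9.60.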
